A study of Homo sapiens with 12 samples.

Results

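Epithelial cells that line the skin and mouth make protease inhibitors of 3 kinds, and the 10 genes described here belong to them: the clade B serpins SERPINB1, SERPINB3, SERPINB4, SERPINB5 and SERPINB13, the Kazal-type inhibitors SPINK5 and SPINK7, and the cystatins CSTA, CSTB and CST6. They were chosen by symbol, with earlier results of these data known, from the 60649 gene IDs of the deposited count tables, and all 10 were found. Serpins trap a protease with an exposed loop that the enzyme cuts, after which both proteins are locked together. Kazal domains and cystatins instead plug the active site without being consumed, Kazal domains in serine proteases and cystatins in papain-like cysteine proteases such as the cathepsins. In squamous epithelium these inhibitors hold back the kallikreins and cathepsins that act while cells mature and shed, and several are known as products of the differentiated upper layers.

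RNA came from xenograft tumours of Cal33, an established human cell line of head and neck squamous cell carcinoma, so all 4 groups share 1 cell line. The co-activators YAP and TAZ reach DNA through TEAD proteins, and the series asks what blocking this partnership does in such tumours. The groups, with 3 libraries each, were smTEADi (tumours treated with the small molecule SW-682), Vehicle (tumours given the vehicle alone), pTEADi (DOX+, tumours in which doxycycline switched on the inhibitor pTEADi) and Control (DOX-, the same experiment without doxycycline). No group was given doxycycline without pTEADi, so changes with pTEADi cannot be told apart from those of doxycycline itself. Doses, times, the host strain and the promoter that drives pTEADi are not given in the sources used here, nor is it stated that the 3 samples of a group were 3 animals. The p-values therefore describe the spread among these samples, which may be technical. Levels are in CPM, counts scaled to library size with 1 TMM scaling for all 12 libraries. Every log2 fold change is treated over its own control, with its SE after the ± sign. Tests used edgeR's quasi-likelihood method with Benjamini-Hochberg adjustment over all genes tested, and a gene is said to have risen or fallen where its adjusted p was under 0.05.

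Library totals ran from 13576494 to 15433679 expected counts, with 14536 to 14873 genes at 10 counts or above. The squamous markers KRT5 (15020 to 24880 CPM) and KRT14 (10230 to 27350 CPM) were high in all 12 libraries. Of 9 tumour keratinocyte markers none rose, EPCAM fell in both comparisons (-1.10 ± 0.20, adjusted p = 0.0365 with SW-682 and -1.15 ± 0.15, adjusted p = 0.000248 with pTEADi) and KRT17 fell with pTEADi (-1.31 ± 0.17, adjusted p = 0.000248); the EPCAM call with SW-682 was lost without smTEADi 3, Vehicle 1 or Vehicle 3. Of the host cell markers, COL3A1, THY1, KDR, TYROBP, AIF1, ELANE, MPO, PRTN3 and CSF3R had 0 counts throughout. A pair of libraries stood apart from their groups on the inhibitor genes: Vehicle 2 was the highest Vehicle library for 8 of the 10 genes (all but SERPINB1 and SERPINB5), at 1.19 times the mean of the other Vehicle libraries for SERPINB4 and 5.15 times for SPINK7, and smTEADi 1 was 1.69 times the mean of the other smTEADi libraries for CSTB.

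With pTEADi, 8 of the 10 inhibitor genes rose and none fell, with SPINK7 (4.13-fold), SPINK5 (2.91-fold), CST6 (2.55-fold) and CSTA (2.19-fold) ahead. SPINK7 met the low-count minimum in all 3 pTEADi libraries but in 1 Control library, so it entered the test through the group where it was high; of the other 9 genes 7 rose. With SW-682, SERPINB3 (1.97-fold), SERPINB4 (1.60-fold), SPINK5 (2.25-fold) and CST6 (2.25-fold) rose and none fell. SERPINB1 and SERPINB5 passed the test in neither comparison. The SW-682 count moved with single libraries: 8 of the 10 rose without Vehicle 2, and none passed without smTEADi 3, Vehicle 1 or Vehicle 3. Over all genes tested, 12.7% rose and 13.6% fell with pTEADi, and 2.02% rose and 3.48% fell with SW-682. The median log2 fold change of the 10 genes was 0.81 with pTEADi (0.70 without SPINK7), against -0.00067 over all 14705 genes tested, and 0.92 with SW-682, against 0.011 over all 14829 genes tested. At an unadjusted p under 0.05, 9 of the genes, SPINK7 among them, passed with pTEADi, where 38.2% of all genes did, and 7 with SW-682, where 27.8% of all genes did. All of these had a positive log2 fold change, and neither DESeq2 nor limma-voom called any of the 10 lower. Because the 10 genes were chosen with earlier results of these data known, their shares and medians beside those of all genes are descriptions only. In bulk tumour RNA, more cells of a type and more RNA per cell cannot be told apart. Keratins of differentiated layers, picked after their values were seen, were also higher in treated libraries: KRT10 at 7100 to 9468 CPM in smTEADi and 2636 to 6058 CPM in Vehicle (1.07 ± 0.30, adjusted p = 0.0640), and at 4410 to 5828 CPM in pTEADi and 847 to 1983 CPM in Control (1.74 ± 0.25, adjusted p = 0.000467). KRT13, a keratin of the oral lining, had 29710 to 39040 CPM in smTEADi and 13940 to 22790 CPM in Vehicle (0.91 ± 0.22, adjusted p = 0.0479), and 21370 to 26830 CPM in pTEADi and 6469 to 12240 CPM in Control (1.36 ± 0.21, adjusted p = 0.000678). Without smTEADi 3, Vehicle 1 or Vehicle 3 no gene of the whole table, KRT13 included, passed with SW-682. The part of such cells in the inhibitor levels was not tested.

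**Figure D1:**
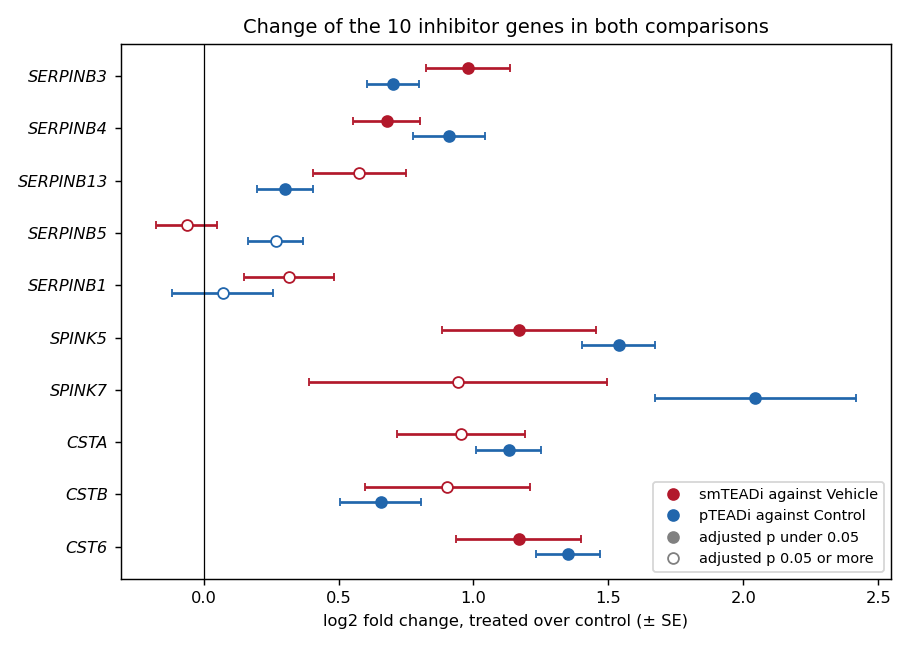
Log2 fold change of the 10 inhibitor genes (x axis, treated over control, bars ± SE) with SW-682 (red) and pTEADi (blue), filled where the adjusted p was under 0.05. All blue points lie right of 0, from 0.07 for SERPINB1 to 2.04 for SPINK7, and SERPINB5 with SW-682 is the 1 point left of it, at -0.06.

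Libraries of the treated and control groups did not overlap for 8 of the 10 genes with pTEADi (20.3% of all genes tested lay wholly above their controls) and for 6 with SW-682 (15.7% of all genes). The 8 include SPINK7, which entered the pTEADi test through the treated group. Added up, the 10 genes made 8946, 6728 and 5794 CPM in the smTEADi libraries, against 3270, 5357 and 3027 CPM in the Vehicle libraries. Their sum was 3539, 4511 and 4329 CPM in the pTEADi libraries and 2144, 2432 and 2241 CPM in the Control libraries. Every treated sum thus lay above every sum of its own controls, with Vehicle 2 the closest at 5357 CPM to smTEADi 3 at 5794 CPM. CSTA and CSTB together supplied 64.4% to 68.3% of the sum in each group mean.

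**Figure D2:**
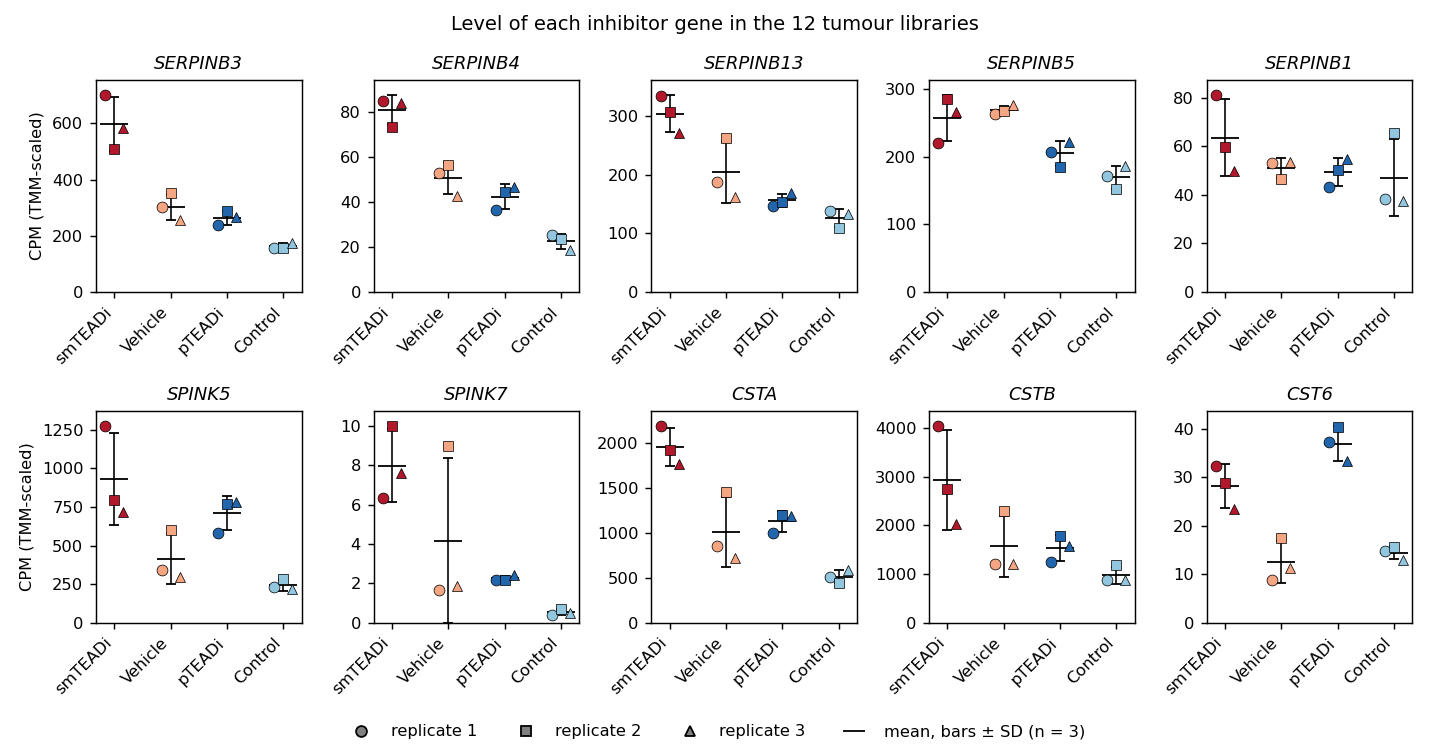
Level of each inhibitor gene in every library (y axis, TMM-scaled CPM, each panel with its own scale from 0); points are libraries, lines the mean ± SD of n = 3. For SPINK7, Vehicle 2 at 9.002 CPM sits among the smTEADi libraries (6.33 to 9.98 CPM), while the pTEADi libraries (2.17 to 2.43 CPM) stand clear of the Control libraries (0.42 to 0.72 CPM).

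Among the serpins, SERPINB3 and SERPINB4 are a pair of neighbouring copies with different targets: SERPINB3, also called squamous cell carcinoma antigen 1, inhibits cysteine cathepsins, and SERPINB4 inhibits chymotrypsin-like serine proteases such as cathepsin G. SERPINB3 (ENSG00000057149.16) lies on GRCh38 chromosome 18 from 63655197 to 63661893 and SERPINB4 (ENSG00000206073.11) from 63637259 to 63644256, both on the minus strand. Their coding sequences, of 1173 bases each, differ at 56 positions (95.2% identical), so the assignment of reads between the copies is uncertain, although all 12 values of each were whole numbers. No stretch of 150 bases, the length of 1 read, was identical between them: the 1024 such windows of the coding sequence held 1 to 20 differences. The window with most differences, coding bases 942 to 1091, ends with the part that encodes the loop offered to the protease, and is shown because it is where both copies are told apart most easily and where their targets diverge. Capitals mark the 20 bases that differ (mRNA sense, Gencode 44 canonical transcripts on GRCh38, bases counted from the start codon).
SERPINB3 coding bases: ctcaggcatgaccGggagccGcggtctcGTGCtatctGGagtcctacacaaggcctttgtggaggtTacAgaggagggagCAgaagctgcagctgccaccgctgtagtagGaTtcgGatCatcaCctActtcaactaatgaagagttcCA
SERPINB4 coding bases: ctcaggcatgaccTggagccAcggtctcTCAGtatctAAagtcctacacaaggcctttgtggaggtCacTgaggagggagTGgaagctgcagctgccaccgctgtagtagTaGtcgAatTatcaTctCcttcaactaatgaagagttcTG

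SERPINB3 had 699, 509 and 585 CPM in the smTEADi libraries and 302, 351 and 256 CPM in the Vehicle libraries, so that the lowest treated library lay well above the highest vehicle library. Its log2 fold change with SW-682 was 0.98 ± 0.15 (adjusted p = 0.0365). In the pTEADi libraries it had 237, 288 and 267 CPM, against 156, 155 and 175 CPM in the Control libraries, a log2 fold change of 0.70 ± 0.10 (adjusted p = 0.000388). SERPINB4 was read at 85.3, 73.7 and 84.4 CPM in the smTEADi libraries, against 52.8, 56.6 and 42.6 CPM in the Vehicle libraries. With pTEADi it reached 36.4, 44.5 and 46.7 CPM, against 25.3, 23.7 and 18.8 CPM in Control libraries. Neither pair of groups overlapped, and SERPINB4 rose with SW-682 (0.68 ± 0.12, adjusted p = 0.0365) and with pTEADi (0.91 ± 0.13, adjusted p = 0.000518). With SW-682 both missed the threshold without smTEADi 3, Vehicle 1 or Vehicle 3 (0.57 to 0.99, adjusted p = 0.0518 to 0.184). With the reads of both copies summed to 1 feature, which does not depend on that assignment, the log2 fold change was 0.94 ± 0.15 with SW-682 (adjusted p = 0.0366) and 0.73 ± 0.09 with pTEADi (adjusted p = 0.000265). SERPINB4 supplied 10.9% to 12.7% of the pair's counts in the smTEADi libraries, below the 13.9% to 14.9% of the Vehicle libraries, and 13.3% to 14.9% in the pTEADi libraries, which overlapped the 9.75% to 14.0% of the Control libraries. The difference in share was not tested.

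Upstream of their transcription start both copies are nearly the same. The 250 bases before the RefSeq start (GRCh38.p14, minus strand, chr18:63661894-63662143 for SERPINB3 and chr18:63644257-63644506 for SERPINB4) differ at 3 positions, given in capitals below (98.8% identical). They are shown because the copies moved together while SERPINB3 was far more abundant.
SERPINB3 promoter: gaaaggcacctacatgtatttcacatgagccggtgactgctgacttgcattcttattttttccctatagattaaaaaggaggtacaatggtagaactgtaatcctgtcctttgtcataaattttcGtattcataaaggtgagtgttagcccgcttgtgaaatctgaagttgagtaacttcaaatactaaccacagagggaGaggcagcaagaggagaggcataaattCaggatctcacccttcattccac
SERPINB4 promoter: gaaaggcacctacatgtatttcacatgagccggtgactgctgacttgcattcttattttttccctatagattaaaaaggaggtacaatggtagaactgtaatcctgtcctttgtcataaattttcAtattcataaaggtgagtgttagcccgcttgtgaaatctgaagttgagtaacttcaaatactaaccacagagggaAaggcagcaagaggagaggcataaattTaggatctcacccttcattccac
Per kilobase of transcript (1707 bases for both), SERPINB3 stood at 350.1 CPM in the smTEADi group and 178 CPM in the Vehicle group, and SERPINB4 at 47.5 CPM in the smTEADi group and 29.7 CPM in the Vehicle group. Both promoters hold the hexamer CATTCC, the reverse complement of the TEAD motif GGAATG, 8 bases before the start. Of 27305 RefSeq promoters searched over the same 250 bases on both strands, 11.9% hold this motif. A match of letters is a description and no evidence of binding.

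SERPINB13, known as headpin, inhibits cathepsins K and L and is often down-regulated in oral carcinomas. It lies in the same cluster (ENSG00000197641.12, chromosome 18, 63586989 to 63604639, plus strand). Its level was 334, 307 and 272 CPM in the smTEADi libraries, against 188, 263 and 162 CPM in the Vehicle libraries. The groups did not overlap, but Vehicle 2 at 263 CPM came close to smTEADi 3 at 272 CPM, and the log2 fold change of 0.58 ± 0.17 did not pass (adjusted p = 0.0725). In the pTEADi libraries SERPINB13 had 146, 153 and 169 CPM, against 138, 109 and 132 CPM in the Control libraries, again without overlap. This was a small rise of 0.30 ± 0.10 on the log2 scale (adjusted p = 0.0483). It passed in 1 of 6 fits that left out a library, the one without Control 3 (0.34, adjusted p = 0.0325), and in the other 5 (without pTEADi 1, 2 or 3, Control 1 or Control 2) the values were 0.21 to 0.36 with adjusted p = 0.0633 to 0.160.

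SERPINB5, or maspin, has the serpin fold but does not inhibit proteases, and is known as a p63 target and tumour suppressor of epithelia (ENSG00000206075.14, chromosome 18, 63476958 to 63505085, plus strand). SERPINB1, found mainly in myeloid cells and also in epithelia, inhibits neutrophil elastase, proteinase 3 and cathepsin G (ENSG00000021355.13, chromosome 6, 2832332 to 2841959, minus strand). For SERPINB5 the smTEADi libraries had 220.1, 285 and 267 CPM, and the Vehicle libraries 263, 267 and 276 CPM. The pTEADi libraries had 208, 185 and 222 CPM of SERPINB5, against 171, 152 and 186 CPM in the Control libraries. Both pairs of groups overlapped, with log2 fold changes of -0.06 ± 0.11 with SW-682 (adjusted p = 0.758) and 0.27 ± 0.10 with pTEADi (adjusted p = 0.0734). SERPINB1 had 81.0, 59.8 and 49.9 CPM in the smTEADi libraries, against 53.1, 46.4 and 53.7 CPM in the Vehicle libraries (0.32 ± 0.17, adjusted p = 0.245). With pTEADi it had 43.4, 50.1 and 54.9 CPM, against 38.3, 65.4 and 37.6 CPM in the Control libraries (0.07 ± 0.19, adjusted p = 0.817). These groups overlapped too, and the second value moved with single Control libraries. Without Control 2 SERPINB1 rose by 0.38 (adjusted p = 0.0249), and without Control 3 its log2 fold change was -0.07 and did not pass. For SERPINB5 with pTEADi, the value without Control 3 was 0.34 (adjusted p = 0.0216), and DESeq2 called it at 0.27 (adjusted p = 0.0491).

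The Kazal-type inhibitors lie close together on the long arm of chromosome 5. SPINK5 encodes LEKTI, a secreted protein of many Kazal domains that restrains the kallikreins KLK5, KLK7 and KLK14, and whose loss causes Netherton syndrome, a disease of skin shedding (ENSG00000133710.16, chromosome 5, 148025683 to 148137382 in Gencode 44, plus strand). SPINK7 is a single-domain relative made in the upper layers of the oesophagus (ENSG00000145879.11, chromosome 5, 148312419 to 148315922, plus strand). SPINK5 reached 1273, 797 and 721 CPM in the smTEADi libraries, against 345, 599 and 298 CPM in the Vehicle libraries. In the pTEADi libraries it had 583, 771 and 783 CPM, against 230, 286 and 219 CPM in the Control libraries. Neither pair of groups overlapped. SPINK5 rose by 1.17 ± 0.29 with SW-682 on the log2 scale (adjusted p = 0.0483) and by 1.54 ± 0.14 with pTEADi (adjusted p = 3.1e-05). Without 1 pTEADi or Control library the log2 fold change of SPINK5 stayed between 1.47 and 1.67 and passed each time. With SW-682 it passed without Vehicle 2 (1.53, adjusted p = 0.0122) and missed the threshold without any other single library (0.87 to 1.31).

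SPINK7 was the scarcest of the 10 genes, and its counts set the precision: the pTEADi libraries held 29, 30 and 35 reads and the Control libraries 6, 10 and 7 reads. As levels these were 2.18, 2.17 and 2.43 CPM with pTEADi, against 0.419, 0.717 and 0.489 CPM in Control. The groups were far apart, with a log2 fold change of 2.04 ± 0.37 (adjusted p = 0.00208), and each fit without 1 library passed (1.89 to 2.29). SPINK7 entered that test through the treated group, since 1 Control library exceeded the low-count minimum of 0.710 CPM. With SW-682 the smTEADi libraries had 6.33, 9.98 and 7.59 CPM and the Vehicle libraries 1.65, 9.002 and 1.85 CPM. Here the groups overlapped because Vehicle 2 lay at the treated level, and the change of 0.94 ± 0.55 did not pass (adjusted p = 0.297). Without Vehicle 2 it was 2.19 (adjusted p = 0.00876).

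The promoter of SPINK5 is shown as that of the gene with the most letter matches among the 7 inhibitor genes found in the RefSeq promoter table (GRCh38.p14, chr5:148063730-148063979, plus strand, 250 bases before the RefSeq start). Capitals mark the TEAD hexamer CATTCC at -169 and AACTGGTT at -61, a match to AACNNGTT, the motif of grainyhead-like factors, which drive epithelial differentiation; positions count back from the start.
SPINK5 promoter: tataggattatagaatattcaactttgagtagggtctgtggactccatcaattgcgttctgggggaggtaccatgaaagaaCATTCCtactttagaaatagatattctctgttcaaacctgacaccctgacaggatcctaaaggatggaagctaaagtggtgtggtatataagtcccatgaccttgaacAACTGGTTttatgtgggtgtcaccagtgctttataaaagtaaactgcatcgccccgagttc
A TATA box, TATAAA, begins at -30 and overlaps its reverse complement TTTATA at -32, and SPINK7 has TATAAA at -26. The AP-1 motif TGANTCA matched in SERPINB13 at -87 and SERPINB5 at -146, and SERPINB5 also holds AACATGTT at -196. SERPINB1 had none of the 4 motifs in this window. Among all 27305 promoters, AACNNGTT occurs in 2.97%, TGANTCA in 6.6% and TATAAA on either strand in 11.1%.

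Of the cystatins, CSTA and CSTB (stefins A and B) stay inside the cell and inhibit cathepsins that leak from lysosomes, and CSTA is also cross-linked into the cornified envelope. CST6 encodes cystatin E/M, which is secreted and inhibits legumain and cathepsins L and V. CSTA (ENSG00000121552.4, chromosome 3, 122325248 to 122341969, plus strand) had 2181, 1918 and 1764 CPM in the smTEADi libraries, against 855, 1451 and 720.0 CPM in the Vehicle libraries. In the pTEADi libraries it had 996, 1193 and 1185 CPM, against 503, 446 and 590 CPM in the Control libraries. The treated libraries lay above their controls in both experiments. CSTA rose with pTEADi (1.13 ± 0.12, adjusted p = 9.12e-05), and with SW-682 its change of 0.96 ± 0.24 lay at the threshold without passing (adjusted p = 0.0502). Without Vehicle 2 it was 1.31 (adjusted p = 0.00516), DESeq2 gave 0.95 (adjusted p = 0.000345) and limma-voom 1.02 (adjusted p = 0.0427).

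CSTB (ENSG00000160213.9, chromosome 21, 43772511 to 43776330, minus strand) was the most abundant of the 10, with 4033, 2741 and 2021 CPM in the smTEADi libraries and 1201, 2298 and 1206 CPM in the Vehicle libraries. Vehicle 2 overlapped the treated group, and the log2 fold change of 0.90 ± 0.30 did not pass (adjusted p = 0.0980). Without Vehicle 2 it was 1.29 (adjusted p = 0.0219). With pTEADi, CSTB had 1251, 1784 and 1567 CPM, against 868, 1179 and 869 CPM in Control, a rise of 0.66 ± 0.15 (adjusted p = 0.00756). The call was lost when the spread was estimated over all 4 groups (0.66, adjusted p = 0.0962), as was that of SERPINB13 (0.30, adjusted p = 0.175).

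CST6 (ENSG00000175315.3, chromosome 11, 66012008 to 66013505, plus strand) had 32.5, 28.8 and 23.5 CPM in the smTEADi libraries, against 8.91, 17.4 and 11.4 CPM in the Vehicle libraries. In the pTEADi libraries it had 37.3, 40.4 and 33.3 CPM, against 14.8, 15.7 and 12.98 CPM in the Control libraries. The groups did not overlap in either experiment, and CST6 rose by 1.17 ± 0.23 with SW-682 (adjusted p = 0.0373) and by 1.35 ± 0.12 with pTEADi (adjusted p = 3.1e-05). Without 1 pTEADi or Control library its log2 fold change was 1.28 to 1.43, and each of these fits passed. With SW-682 it passed without Vehicle 2 (1.48, adjusted p = 0.00846) and in no other fit that left out 1 library (0.97 to 1.28).

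The calls with SW-682 rested on few libraries. Without Vehicle 2, 8 of the 10 genes rose (all but SERPINB1 and SERPINB5), without smTEADi 1 or smTEADi 2 SERPINB3 and SERPINB4 did, and without smTEADi 3, Vehicle 1 or Vehicle 3 none of the 10, and no gene of the whole table, passed edgeR's test. In those last 3 fits the smallest adjusted p among the 10 genes was 0.0518 without smTEADi 3, 0.134 without Vehicle 1 and 0.184 without Vehicle 3. In the 5 fits that kept Vehicle 2 the adjusted p was 0.0528 to 0.210 for SPINK5 and 0.0518 to 0.184 for CST6. SERPINB3 ranged from 0.85 to 1.10 and SERPINB4 from 0.57 to 0.77 over the 6 fits. With smTEADi 1 and Vehicle 2 both left out, a setting chosen after seeing the data, 8 of the genes rose.

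**Figure D3:**
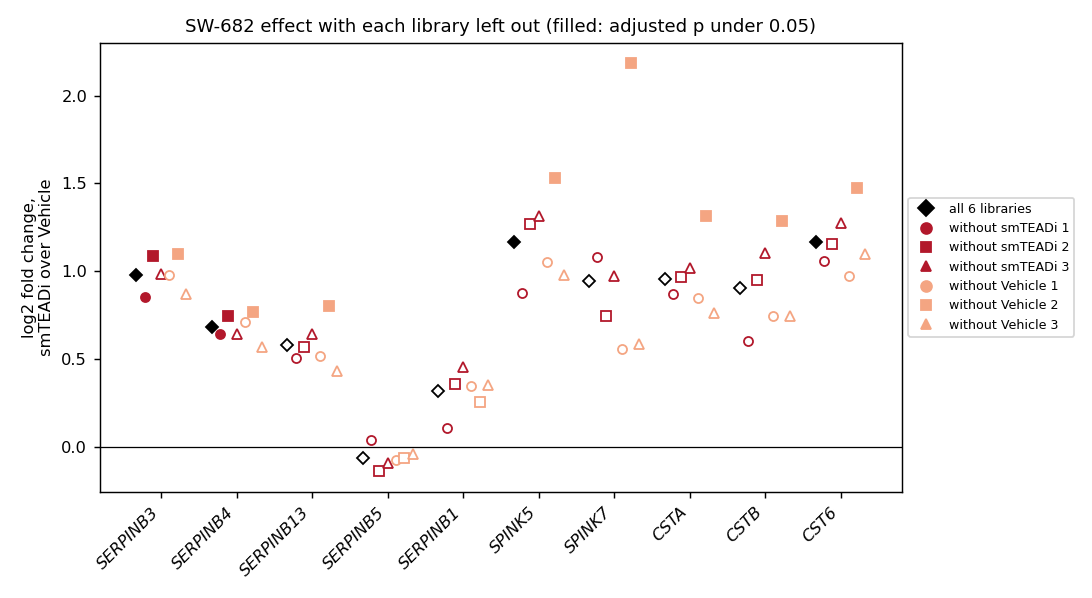
Log2 fold change of each inhibitor gene with SW-682 (y axis, smTEADi over Vehicle) in the fit of all 6 libraries (diamonds) and with each library left out (other symbols), filled where the adjusted p was under 0.05. The filled squares of the fit without Vehicle 2 lie highest for 8 genes, up to 2.19 for SPINK7, while SERPINB5 stays between -0.14 and 0.04.

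The effects of the 2 inhibitors on these genes were compared by subtracting the SW-682 effect from the pTEADi effect in a single fit of the 12 libraries. The pTEADi effect includes any effect of doxycycline. None of the 10 passed edgeR's test, none had an unadjusted p under 0.05, and neither DESeq2 nor limma-voom called any. Over all genes 2 of 15460, or 0.0129%, passed, and 1103, or 7.13%, had an unadjusted p under 0.05. Differences ran from -0.27 ± 0.19 for SERPINB3 to 1.11 ± 0.80 for SPINK7, and the smallest adjusted p was that of SERPINB5 (0.33 ± 0.16, adjusted p = 0.697). For SPINK5 the difference was 0.37 ± 0.35, for CSTA 0.18 ± 0.29 and for CST6 0.18 ± 0.28. With errors of this size, differences of the order of the effects themselves could not be told from 0 for several genes. Among them were SPINK7, CSTB (-0.24 ± 0.38) and SERPINB13 (-0.27 ± 0.22). The lack of calls therefore does not show that both inhibitors acted alike.

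Levels between genes were compared per kilobase of the canonical transcript. CSTB (4986 CPM per kilobase in smTEADi, 2667 in Vehicle, 2609 in pTEADi and 1653 in Control) and CSTA (2627 CPM per kilobase in smTEADi, 1355 in Vehicle, 1511 in pTEADi and 690 in Control) stood above the other 8 genes in every group. SPINK7 was lowest, with 14.4 CPM per kilobase in smTEADi, 7.52 in Vehicle, 4.08 in pTEADi and 0.977 in Control. For SERPINB1, SERPINB3, SERPINB4, SERPINB13, SPINK7 and CSTB, mean CPM from high to low ran smTEADi, Vehicle, pTEADi, Control, with libraries of Vehicle and pTEADi overlapping. For SERPINB1, SPINK7 and CSTB the libraries of smTEADi and Vehicle overlapped as well, and for SERPINB1 those of pTEADi and Control. SPINK5 and CSTA had pTEADi above Vehicle, with overlap, and for SPINK5 the libraries of smTEADi and pTEADi overlapped as well. CST6 had its highest mean in pTEADi (37.0 ± 3.55 CPM, SD, n = 3), followed without overlap by smTEADi (28.2 ± 4.51 CPM) and then by Control (14.5 ± 1.38 CPM) and Vehicle (12.6 ± 4.39 CPM), which overlapped. SERPINB5 averaged 257 ± 33.3 CPM in smTEADi and 269 ± 6.58 CPM in Vehicle, above 205 ± 18.7 CPM in pTEADi and 169.8 ± 16.9 CPM in Control. Its libraries overlapped between Vehicle and smTEADi, between smTEADi and pTEADi, and between pTEADi and Control. Differences between Vehicle and Control, which belong to separate experiments, were not tested.

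**Figure D4:**
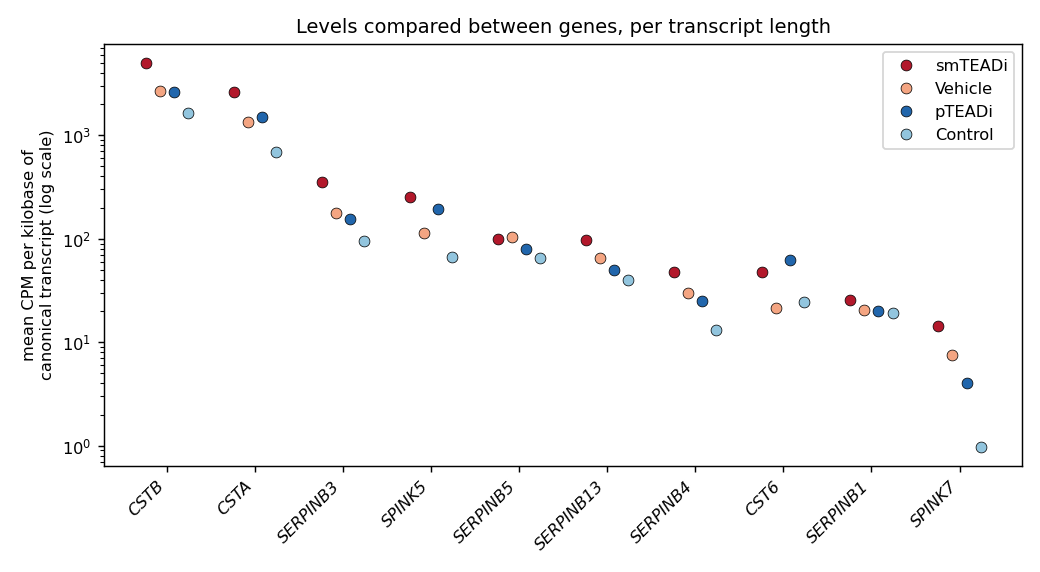
Mean level of the 10 genes per kilobase of canonical transcript (y axis, CPM per kilobase, log scale) in the 4 groups, genes ordered from high to low. CSTB and CSTA stand at 690 to 4986 CPM per kilobase, and SPINK7 at 0.977 to 14.4 CPM per kilobase.

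Across the 12 libraries, with log2 CPM centred within each experiment, 8 of the genes varied together. Pearson's r was 0.96 between SPINK5 and CST6, 0.95 between SPINK5 and CSTA and 0.95 between SERPINB3 and CSTA, and it was 0.77 or more for every pair among the 8. SERPINB5 (-0.41 with SERPINB1 and -0.09 to 0.32 with the 8) and SERPINB1 (0.19 to 0.61 with the 8) stood outside this group. These points share the treatment difference within each experiment and the library, and are given as a description.

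Other protease inhibitors, of the same and of further families, were read beside the 10 genes. Their lists were set with earlier results of these data known. Of 8 other clade B serpins 6 were measured well enough to test, and 5 of them rose with pTEADi and none fell: SERPINB11 (1.86 ± 0.19, adjusted p = 6.65e-05) and SERPINB12 (1.75 ± 0.27, adjusted p = 0.000743), both keratinocyte serpins, SERPINB7 (0.95 ± 0.13, adjusted p = 0.000423), whose loss causes Nagashima-type palmoplantar keratosis, SERPINB2 (0.89 ± 0.14, adjusted p = 0.000832), the plasminogen activator inhibitor type 2, and SERPINB8. Over all genes tested, 12.7% rose with pTEADi. Without 1 library 4 or 5 of these serpins rose, and without Control 3 a further gene of this list fell. With SW-682, SERPINB8 alone of the 6 rose (0.61 ± 0.13, adjusted p = 0.0397) and none fell; 4 had an unadjusted p under 0.05, against 27.8% of all genes, and DESeq2 called 3 and limma-voom 2. The SERPINB8 call was absent from 5 of the 6 fits without 1 library, in which no gene of this list passed, while the fit without Vehicle 2 called 4. Over the 6 serpins the median log2 fold change was 0.92 with pTEADi and 0.61 with SW-682.

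Of 14 inhibitors on a list of other Kazal, Kunitz and WAP-type genes, which also held A2ML1, 6 could be tested. No SPINK gene was among these 6. SLPI, the secretory leukocyte protease inhibitor of mucosa, rose with SW-682 (0.69 ± 0.13, adjusted p = 0.0365), with a mean of 894 ± 70.6 CPM in smTEADi and 555 ± 72.8 CPM in Vehicle (SD, n = 3). It also rose with pTEADi (0.84 ± 0.09, adjusted p = 0.000120), as did A2ML1, a broad protease inhibitor of stratified epithelia (0.74 ± 0.16, adjusted p = 0.00527), WFDC5 (0.63 ± 0.15, adjusted p = 0.00859) and SPINT1, the Kunitz-type inhibitor of matriptase (0.57 ± 0.11, adjusted p = 0.00312). None of the 6 fell in either comparison, and DESeq2 and limma-voom called none lower. With SW-682, 4 had an unadjusted p under 0.05 (27.8% of all genes), among them PI3, which was lower (-0.47 ± 0.20, adjusted p = 0.158). Its mean was 304 CPM in smTEADi and 420 CPM in Vehicle. With pTEADi, 5 had an unadjusted p under 0.05 (38.2% of all genes). With the spread shared by 4 groups 2 of the 6 rose with pTEADi and 3 with SW-682. The SLPI call with SW-682 was lost without smTEADi 3, Vehicle 1 or Vehicle 3, when no gene of this list passed. Of 9 other cystatins, CST3 (cystatin C) alone could be tested: it rose with pTEADi (0.95 ± 0.10, adjusted p = 8.51e-05), and its 0.64 ± 0.17 with SW-682 did not pass in edgeR (adjusted p = 0.0543), though DESeq2 and limma-voom called it.

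Proteases that such inhibitors act on did not move one way. Of 14 serine proteases 10 could be tested, and with pTEADi 4 rose and 2 fell. Over all genes tested, 12.7% rose and 13.6% fell with pTEADi, so calls in both directions are not particular to proteases. Without 1 library, 3 or 4 serine proteases rose and 1 to 3 fell, and with the spread shared by 4 groups 1 rose and 2 fell. KLK11 (1.56 ± 0.13, adjusted p = 2.38e-05), KLK7 (0.70 ± 0.10, adjusted p = 0.000365) and KLK8 (0.46 ± 0.10, adjusted p = 0.00491), kallikreins of the differentiated epidermis, rose. KLK5, the trypsin-like kallikrein that activates KLK7 and is the main target of LEKTI, fell (-0.99 ± 0.11, adjusted p = 9.4e-05), with 83.0 ± 6.72 CPM in pTEADi and 165 ± 21.3 CPM in Control. In the same tumours SPINK5 rose. With SW-682 edgeR called none of the 10, and 2 had an unadjusted p under 0.05, a share below the 27.8% of all genes: KLK5 (-0.84 ± 0.23, adjusted p = 0.0612) and KLK11 (0.83 ± 0.30, adjusted p = 0.116). DESeq2 called 1 lower, limma-voom called none, and without Vehicle 2 edgeR called 4 higher.

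Of 12 cysteine proteases 11 could be tested, and with pTEADi 4 rose and 3 fell, where 12.7% of all genes rose and 13.6% fell. The number that rose was 1 without pTEADi 3, 2 without pTEADi 2, Control 1 or Control 2, and 3 without pTEADi 1 or Control 3. CTSL, the cathepsin inhibited by SERPINB3, SERPINB13 and the cystatins, fell (-0.61 ± 0.11, adjusted p = 0.00196), as did CTSZ (-0.82 ± 0.10, adjusted p = 0.000253). LGMN, which encodes legumain, the target of CST6, rose (0.47 ± 0.09, adjusted p = 0.00378), as did CTSO (0.83 ± 0.21, adjusted p = 0.0126). With SW-682, CTSZ fell (-0.66 ± 0.15, adjusted p = 0.0421) and none rose; 4 had an unadjusted p under 0.05, against 27.8% of all genes, DESeq2 called 2 lower and limma-voom 1 lower. No cysteine protease fell in the 4 fits without smTEADi 1, smTEADi 3, Vehicle 1 or Vehicle 3. The median log2 fold change of the cysteine proteases was 0.32 with pTEADi and 0.18 with SW-682, and that of the serine proteases was 0.22 with pTEADi and 0.34 with SW-682. CTSG, whose product SERPINB1 and SERPINB4 inhibit, and the neutrophil enzymes ELANE and PRTN3, which SERPINB1 inhibits, were not among the genes tested.

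**Figure D5:**
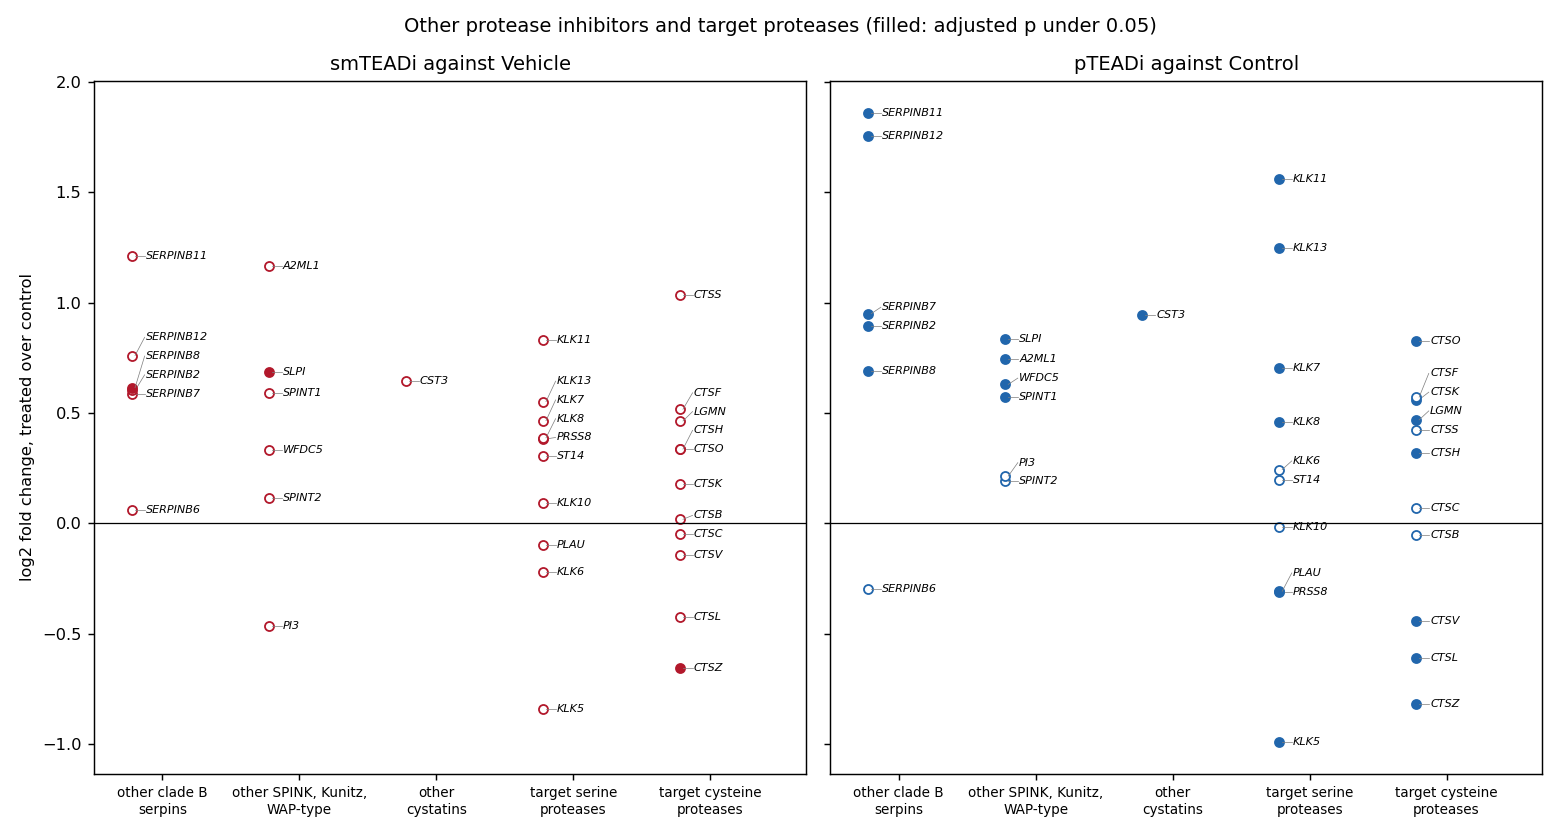
Log2 fold change (y axis, treated over control) of other protease inhibitors and of target proteases with SW-682 (left) and pTEADi (right), 1 point per gene tested, filled where the adjusted p was under 0.05. With pTEADi all filled inhibitor points lie above 0, up to 1.86 for SERPINB11, while filled proteases lie on both sides, from -0.99 for KLK5 to 1.56 for KLK11.

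Within each experiment VWF and S100A12, taken from the lists of host cell markers, had a higher mean in the treated group, as most of the inhibitor genes did. Whether host cells or tumour cells supplied their reads was not tested. VWF, an endothelial gene, had 35.7 to 64.0 CPM in smTEADi, 15.7 to 32.8 CPM in Vehicle, 30.6 to 41.9 CPM in pTEADi and 12.7 to 21.1 CPM in Control, but the other 4 of the 5 endothelial markers (PECAM1, CDH5, KDR and TEK) stayed under 1 CPM in all libraries, with at most 3 counts. The 7 neutrophil markers summed to 18.7 to 53.7 CPM in smTEADi, 9.05 to 26.0 CPM in Vehicle, 20.2 to 27.9 CPM in pTEADi and 6.002 to 15.3 CPM in Control, nearly all of it S100A12, with ELANE, MPO, PRTN3 and CSF3R at 0 counts in all 12 libraries. Summed fibroblast markers (8 genes, mostly COL1A1) overlapped between treated and control libraries in both experiments, at 83.4 to 90.8 CPM in smTEADi, 73.0 to 92.8 CPM in Vehicle, 95.9 to 135 CPM in pTEADi and 95.7 to 114 CPM in Control. The 7 macrophage and leukocyte markers also overlapped (13.9 to 43.8 CPM in smTEADi, 19.2 to 28.5 CPM in Vehicle, 19.8 to 24.8 CPM in pTEADi and 23.97 to 44.8 CPM in Control), and CD68 had the highest mean of them in every group. Of them CSF1R, the receptor of macrophage growth factors, fell with pTEADi (-1.39 ± 0.41, adjusted p = 0.0254), at 1.46 ± 0.656 CPM in pTEADi and 3.82 ± 1.82 CPM in Control (SD, n = 3), and its -0.93 ± 0.24 with SW-682 did not pass (adjusted p = 0.0542). The CSF1R call with pTEADi was lost without pTEADi 2, pTEADi 3 or Control 2. The part of these cells in the inhibitor levels was not tested.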

How the data were processed

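Messenger RNA selected with poly-T beads was sequenced in paired 150-base reads. Per the submitters' processing notes and the series' design text, alignment by the authors used STAR 2.7.9a with GRCh38 (hg38) and Gencode 38, and RSEM 1.3.1 then produced the read counts. What they deposited are expected counts, 1 value a gene and library, without any scaling. Of the nonzero values, 20.0% to 21.2% per library were not whole, but all 12 values of each of the 10 inhibitor genes were whole. Strand setting and treatment of reads from the mouse host are not given in the sources used here, so reads of antisense genes could not be separated and mouse reads may have been counted.

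Gene IDs were matched to symbols and positions in Gencode 44 (GRCh38), and SPINK5 was matched by its ID without the version. Libraries were grouped by their labels, and none of the 66 pairs of libraries was a duplicate. Counts were rounded, filtered with filterByExpr (minimum count 10), scaled by TMM and tested with edgeR 4.0.16 in R 4.3.3 (two-sided quasi-likelihood F test, Benjamini-Hochberg adjusted p of 0.05). Each treatment was tested in a fit of its own 6 libraries over all genes. The SE is the log2 fold change divided by the square root of F. The tests were tried on simulated data first. Other settings tried were upper-quartile and RLE scaling, no filter, 10 counts in 3 libraries, DESeq2 1.42.0, limma-voom (limma 3.58.1), unrounded counts, a threshold of 0.01, a replicate block, a spread shared by 4 groups, SERPINB3 and SERPINB4 summed, and leaving out libraries.

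All 10 inhibitor genes are named. From each further list up to 4 genes that passed are named, those with the smallest p. Others where values are singled out (KLK5, KLK11 and PI3 with SW-682, CST3) were chosen after their values were seen. For likeness, the 3 protein-coding genes of at least 5 CPM with the highest Pearson r were taken, and for SERPINB13 only the first of them is reported here. The inhibitor genes and all lists were chosen with earlier results of these data known. Promoter sequences are from RefSeq (GRCh38.p14), whose table matched 7 of the 10 genes, and coding sequences are from Gencode 44 transcripts.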

Additional observations from a re-analysis of the deposited data

How the results depend on the processing

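Of 14829 genes, 816 were called with SW-682. The count was 2101 without a low-count filter, 1870 with DESeq2, 2303 with a spread shared by 4 groups, 2073 with smTEADi 1 and Vehicle 2 left out (chosen after seeing the data), 0 at an adjusted p under 0.01 and 0 to 1622 without 1 library. Of the 10 inhibitor genes, 4 were called, and 7 without the filter, 7 with the shared spread, 8 with smTEADi 1 and Vehicle 2 left out, 0 at 0.01 and 0 to 8 without 1 library. With pTEADi, 3864 genes were called, 2138 at 0.01 and 2325 to 4379 without 1 library. For the difference of the effects, 2 genes were called, 377 without the filter, 38 with DESeq2, 0 at 0.01 and 0 to 20 without 1 library. The smaller fits have fewer samples, and the other causes were not tested.

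The replicate numbers are not known to pair the libraries. Deviations from the group means of same-numbered libraries correlated at -0.18 to 0.171 with SW-682 and -0.0531 to 0.00491 with pTEADi. The library smTEADi 1, for one, correlated best with Vehicle 2 (0.343). With 3 libraries in each group, such correlations cannot decide whether same-numbered samples were paired. With the replicate number as a block, 0 genes and 0 inhibitor genes were called with SW-682, 3707 genes and 9 inhibitor genes with pTEADi, and 0 genes for the difference.

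No log2 fold change of an inhibitor gene that was called changed sign. Over all settings, 128 values with SW-682 kept their side of the threshold, 24 lost it and 18 gained it; with pTEADi 146 kept it, 9 lost it and 5 gained it; for the difference all 210 kept it. Depth limits SPINK7 most, at 6 to 10 reads in Control libraries.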

Other observations

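The genes whose levels ran closest to each inhibitor gene were sought over 12 libraries (log2 CPM centred within each experiment, 10628 protein-coding candidates). For SPINK5 they were SCNN1A, a subunit of the epithelial sodium channel (r = 0.994), the transmembrane protease TMPRSS11E (0.994) and PEBP1 (0.993). CSTA ran with DBI (0.994), the ceramide synthase of the epidermal barrier CERS3 (0.993) and the protease TMPRSS11D (0.99). For CST6 they were TMED3 (0.99), the related cystatin CST3 (0.985) and CLIC3 (0.982). CSTB ran with GFOD2 (0.988), GRHL1, a grainyhead-like factor of differentiating epidermis (0.984), and PGLYRP3 (0.984). SERPINB3 was closest to SMAGP (0.987), PARD3 (0.982) and PLBD1 (0.972), and its copy SERPINB4 to MTERF4 (0.968), ATP6V1G1 (0.967) and RNF208 (0.954). SERPINB13 ran with FAM162A (0.985). For SPINK7 they were PPP1R7 (0.981), RPTN, a cornified envelope gene (0.948), and TVP23C (0.946).

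The genes that passed in neither comparison had other company. SERPINB1 ran with the lactate transporter SLC16A3 (0.954), PRSS22 (0.938) and CD55 (0.922), and SERPINB5 with PIGY and PYURF (0.904 each), which share 1 transcript and cannot be told apart in the counts, and TTC1 (0.891). These correlations are a description over libraries that share the treatment difference, the highest of many, and carry no test.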
